A study of Mus musculus with 2 samples.

Results

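Glycolytic enzymes come as isozymes, products of separate genes or of alternative transcripts that catalyse the same step, and 10 genes coding for them (Hk1, Pfkm, Pfkp, Aldoa, Aldoc, Gapdh, Pgk1, Eno1, Eno2 and Pkm) were followed in the mouse hippocampus. They were taken by symbol from the gene tables, where the 10 symbols had 11 entries among 55536 genes, since Aldoa is annotated under a main and a small second entry. Both libraries came from hippocampal tissue of male B6CASTF1/J mice, a cross of C57BL/6J with CAST/EiJ, aged 14 days, with no treatment named. They are biological replicates 1 and 2 of a single group, each made from 300 ng of total RNA with ERCC spike-ins for stranded libraries with reduced ribosomal RNA. Each label lists 3 males without saying whether they were pooled, and both name the same donor record, so the spread between the libraries may be partly technical. The single group allows no contrast of conditions, so levels, ratios between isozymes, transcript forms and the difference between the libraries are described.

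Glycolysis splits glucose into pyruvate in the cytosol and yields ATP and NADH on the way. Hexokinase traps glucose, phosphofructokinase commits it, aldolase cleaves the sugar, and the lower steps (GAPDH, phosphoglycerate kinase, enolase, pyruvate kinase) recover the energy. In brain, some isozymes are textbook cell markers: aldolase C of astrocytes, and enolase 2 (neuron-specific enolase) of neurons. Pyruvate kinase M exists as M1, a constitutively active form of adult muscle and brain, and M2, an allosterically regulated form known from embryonic and dividing cells. Both are made from Pkm by the choice of 1 of a pair of mutually exclusive exons.

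The exon pair of Pkm is shown because the M1 and M2 values rest on it. Exon 9 (M1) lies at chr9:59675029-59675195 and exon 10 (M2) at chr9:59675568-59675734 on the plus strand of mm10, and both are 167 bases of coding sequence from the GENCODE M21 transcripts. Printed 5′ to 3′, with capitals at the positions where they differ, they read as follows.
M1 exon: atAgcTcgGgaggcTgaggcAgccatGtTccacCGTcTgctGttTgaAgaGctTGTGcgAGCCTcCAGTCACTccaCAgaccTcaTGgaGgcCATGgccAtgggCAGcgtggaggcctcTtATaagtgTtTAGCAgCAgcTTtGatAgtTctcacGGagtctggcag
M2 exon: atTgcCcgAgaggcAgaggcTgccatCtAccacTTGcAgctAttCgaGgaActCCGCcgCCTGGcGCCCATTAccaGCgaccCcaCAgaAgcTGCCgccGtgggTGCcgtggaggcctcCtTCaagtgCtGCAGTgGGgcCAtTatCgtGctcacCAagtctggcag
The 2 exons differed at 64 of 167 positions, an identity of 61.7%, spread along their whole length.

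The starts of the 3 main Hk1 transcripts are shown because each of these transcripts begins its coding sequence differently. On the minus strand of chromosome 10, the first coding stretch that each transcript has before the shared body reads as follows, with the start codon in capitals.
Hk1-202: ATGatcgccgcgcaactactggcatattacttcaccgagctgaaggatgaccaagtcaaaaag
Hk1-201: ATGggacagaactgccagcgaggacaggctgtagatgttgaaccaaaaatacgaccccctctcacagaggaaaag
Hk1-205: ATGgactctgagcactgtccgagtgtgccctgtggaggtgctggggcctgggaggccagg
The stretch of Hk1-202 is 63 bases at chr10:62340013-62340075 and encodes the start by which the common form of hexokinase 1 binds the outer mitochondrial membrane. That of Hk1-201 is 75 bases split over exons between chr10:62353058-62358362, out of 144 coding bases that Hk1-202 lacks, and that of Hk1-205 is 60 bases at chr10:62342501-62342560.

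Levels are given as TPM (counts scaled by effective length and then to a fixed library total), so that genes can be compared per length. The totals over all genes were 29144892 counts (replicate 1) and 31755578 counts (replicate 2), and 3 counts, the limit that is left by a zero, are 0.103 and 0.0945 CPM there (a count relative to its library's total). Astrocyte markers summed to 1606 and 1679 TPM and excitatory neuron markers to 2687 and 2899 TPM. The liver marker Alb had 0 counts in both libraries, and the skeletal muscle markers summed to 3.54 and 2.87 TPM. Myelinating oligodendrocyte markers were at 1635 TPM in replicate 1 and 872 in replicate 2, and choroid plexus markers at 87.5 and 46.2.

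All 10 genes were among the upper levels of the tissue. Their median TPM was 235.5, and ranks among 22015 protein-coding genes outside the mitochondrial genome ran from 15 (Gapdh) to 808 (Pfkp). Together they held 0.769% of protein-coding TPM in replicate 1 and 0.731% in replicate 2. The order by TPM in the gene tables was Gapdh, Aldoa, Pkm, Aldoc, Eno2, Pgk1, Eno1, Hk1, Pfkm, Pfkp. The values of neighbours in that order did not overlap between the libraries, except for Hk1 and Pfkm, which changed places from library to library. The place of Gapdh rested on its short effective length of 654 and 671 bases, which is taken up below. By count in the gene tables Gapdh had 11608 and 13367, below Aldoa with 20621 and 21612.

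**Figure D1:**
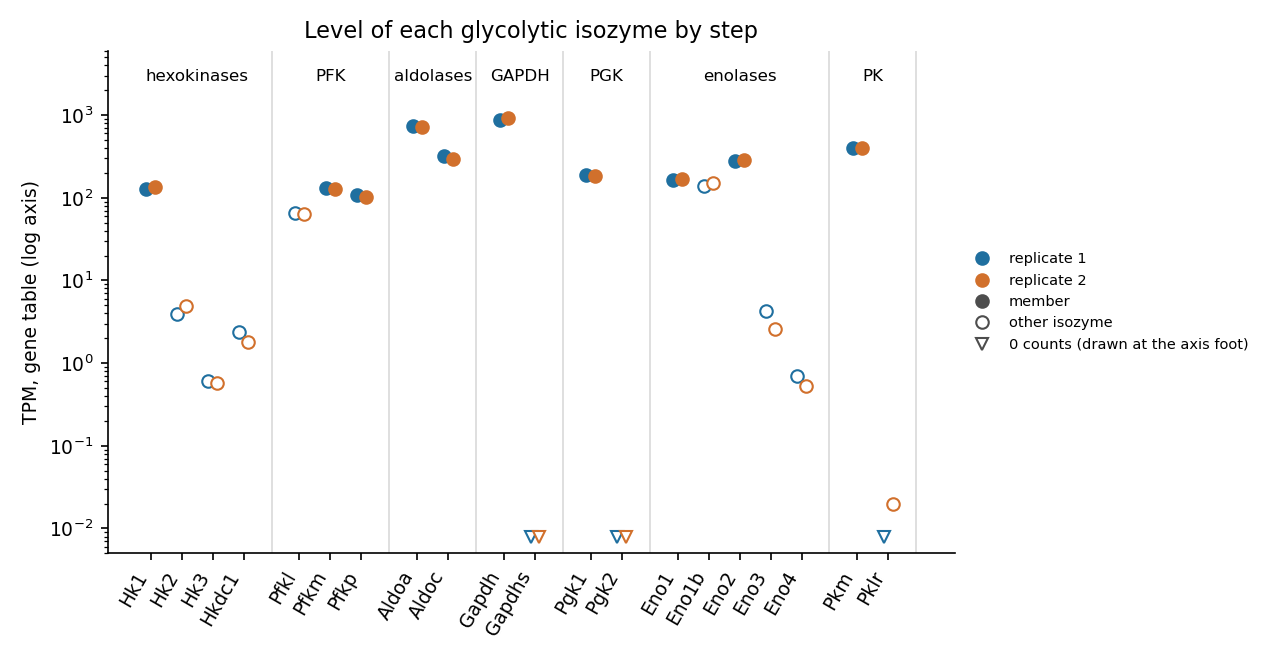
TPM of the isozymes described for the 7 glycolytic steps with a member, on a log axis, with 1 point per library (filled for members, open for other isozymes, triangles for 0 counts). The members lie above 100 TPM, and of the other isozymes only Pfkl and Eno1b come within the same decade as the members of their step.

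Hexokinase 1, the general enzyme of the first step and the main one of brain, carried most of the RNA of the hexokinase genes described here. Hk1 (ENSMUSG00000037012.18, chr10:62268855-62379908) had 129 TPM in replicate 1 and 134 in replicate 2, or 94.9% ± 0.023 (SD, n = 2) of the summed TPM of Hk1, Hk2, Hk3 and Hkdc1. Hk2, the insulin-responsive form of muscle and fat, had 3.89 and 4.88 TPM. The log2 ratio of Hk1 to Hk2 was 4.92 ± 0.19, a 30.2-fold difference that was far above the spread between the libraries. Hkdc1 held 2.10 ± 0.43 TPM, and Hk3, known from myeloid cells, was under a mean of 1 TPM, at 0.585 ± 0.021.

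No p-value is given for such ratios, because with 2 libraries the smallest p of an exact sign-flip test is 0.5. Isozymes were called different when the log2 ratio had 1 sign in the pair of libraries and a mean larger in size than both 0.5 and 2 SD. By that rule 6 of the 7 pairs with counts for both genes differed.

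Phosphofructokinase RNA was spread over 3 genes. Pfkm (muscle-type subunit, ENSMUSG00000033065.14, chr15:98092589-98132451) had 130 and 128 TPM in replicates 1 and 2. Pfkp (platelet-type, ENSMUSG00000021196.14, chr13:6579768-6648777) had 108 and 104 TPM. Pfkl (liver-type) had 64.9 and 64.5 TPM, so RNA for all 3 subunits of this tetrameric enzyme was present at substantial levels. Pfkm made up 43.1% ± 0.13 of the step, Pfkp 35.2% ± 0.38 and Pfkl 21.6% ± 0.25. The log2 ratio of Pfkp to Pfkm was -0.29 ± 0.02, the same sign in both libraries but under the size needed for a call. Without scaling by length, on counts, it was -0.024 ± 0.06, with opposite signs in the libraries. Both genes exceeded Pfkl per length, with log2 ratios of 1.00 ± 0.01 for Pfkm and 0.71 ± 0.03 for Pfkp. In the kallisto-layout tables, a second quantification of the same libraries, Pfkp to Pfkm was -0.56 ± 0.05 and did pass the rule.

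Aldolase had the highest summed level of the 7 steps in the gene tables, with 1038 ± 23.3 TPM over Aldoa and Aldoc, but stood below GAPDH in the kallisto-layout tables. Aldoa, the general and muscle form (ENSMUSG00000030695.16, chr7:126795234-126800751), had 738 and 726 TPM in replicates 1 and 2. Its small second entry, just upstream, had 22 and 32 counts (1.67 and 2.29 TPM) and is left out of what follows. Aldoc, the brain form enriched in astrocytes (ENSMUSG00000017390.15, chr11:78322968-78327781), had 317 and 296 TPM. Aldoa exceeded Aldoc by a log2 ratio of 1.26 ± 0.05, or 2.39-fold, and Aldoc still made up 29.5% ± 0.75 of their sum. In bulk tissue such a mix of a glial and a general isozyme reads both the number of cells of each type and the RNA per cell, which cannot be told apart.

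Gapdh and Pgk1 stood alone at their steps. Gapdh (ENSMUSG00000057666.18, chr6:125161715-125166467), which oxidises glyceraldehyde phosphate, had 879 and 927 TPM from 11608 and 13367 counts. Its sperm-specific relative Gapdhs had 0 counts in both gene tables, which makes Gapdh at least 6316-fold higher per length, with 3 counts per library as the limit for the zero. Pgk1 (ENSMUSG00000062070.12, chrX:106187100-106203699), the X-linked kinase that makes the first ATP, had 189 and 184 TPM. The testis gene Pgk2 had 0 counts in both libraries, so Pgk1 was at least 1939-fold higher by the same limit. In the kallisto-layout table Gapdhs was not at 0 but at a mean of 0.242 TPM, while Pgk2 was at 0 there as well.

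Enolase RNA was divided between the neuronal and the general gene. Eno2 (ENSMUSG00000004267.16, chr6:124760053-124769673) had 280 and 290 TPM in replicates 1 and 2. Eno1 (ENSMUSG00000063524.13, chr4:150236721-150248879) had 166 and 168 TPM, below Eno2 in both libraries, with a log2 ratio of -0.77 ± 0.02 (1.71-fold). This direction depended on how copies of Eno1 were counted. Eno1b, a near-copy annotated as protein-coding, had 139 and 151 TPM of its own. With the TPM of Eno1b and of the pseudogene Gm4735 added to Eno1, the log2 ratio to Eno2 became 0.44 ± 0.02 in the gene tables and 0.09 ± 0.01 in the kallisto-layout tables, and neither passed the rule. Eno3, the muscle form, had 4.25 and 2.57 TPM, with Eno2 above it by a log2 ratio of 6.43 ± 0.55. Eno4, known from sperm, had 0.615 ± 0.12 TPM.

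Pkm (ENSMUSG00000032294.17, chr9:59656368-59679375) closed the pathway with 396 and 401 TPM in replicates 1 and 2. Pklr, the gene for the liver and red blood cell enzyme, had 0 counts in replicate 1 and 1 count in replicate 2. Pyruvate kinase RNA in both libraries was therefore almost wholly from Pkm.

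**Figure D2:**
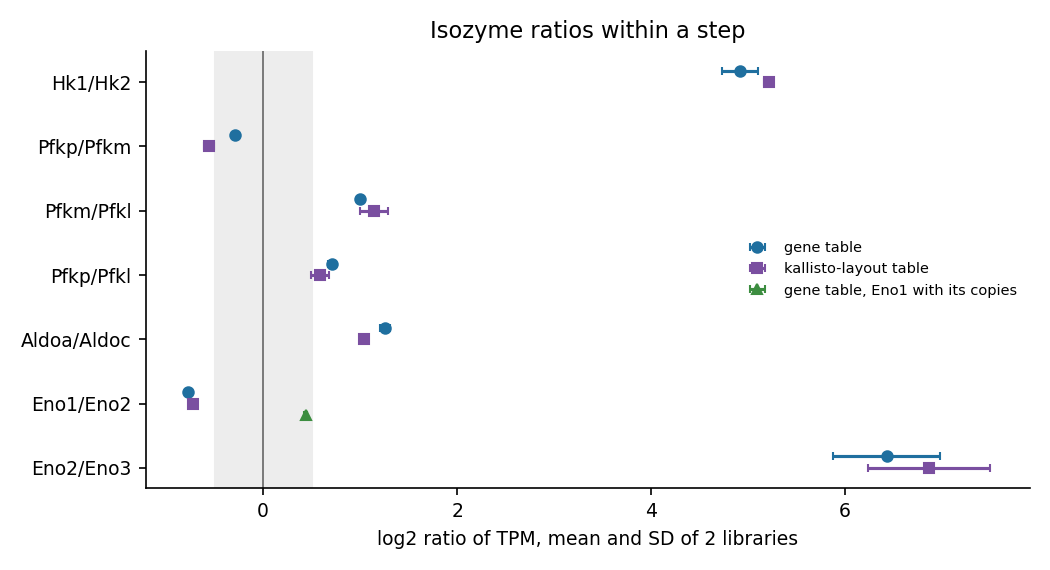
Log2 ratio of TPM for 7 isozyme pairs, as the mean and SD of 2 libraries, from the gene tables (circles), from the kallisto-layout tables (squares) and, for Eno1 to Eno2, with the copies of Eno1 added (triangle). The shaded band marks ratios within 0.5, where no pair was called. Pfkp/Pfkm lies within it in the gene tables only, and Eno1/Eno2 moves from -0.77 to 0.44 when the copies are added.

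The M1 and M2 forms of Pkm were equally abundant in the RSEM-layout transcript tables. Of its 11 annotated transcripts, Pkm-202 and Pkm-203 carry the M1 exon and Pkm-201 carries the M2 exon. The other 8 carry neither exon in full, or both, and were left unassigned. M1 had 189 TPM in replicate 1 and 195 in replicate 2, and M2 had 191 and 193. M1 was slightly lower in replicate 1 and slightly higher in replicate 2, and M2 made up 49.9% ± 0.30 (SD, n = 2) of the sum of both. The unassigned transcripts added 15.9 and 13.2 TPM. Pkm-203, a retained-intron transcript, contributed 6.06 TPM of the M1 value in replicate 1 and 1.91 in replicate 2, so the M1 form was almost wholly Pkm-202.

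The kallisto-layout tables placed M2 above M1 in both libraries. There M1 had 262 and 265 TPM and M2 had 325 and 320 TPM, an M2 share of 55.1% ± 0.44. The log2 ratio of M2 to M1 was 0.29 ± 0.03, under the size needed for a call, against -0.0032 ± 0.017 in the RSEM-layout tables. By counts, which are not scaled by length, the M2 share was 54.9% ± 0.56 in the RSEM-layout tables and 60.7% ± 0.77 in the kallisto-layout tables. The last of these corresponds to a log2 ratio of 0.63 ± 0.05 and was the only M2 to M1 ratio of the 4 that passed the rule. Pkm-201 has 2432 bases and Pkm-202 has 2041. They share 1874 bases, Pkm-202 adds only its exon of 167, and Pkm-201 adds 558, made up of its exon, 205 bases of 5′ UTR and 186 of 3′ UTR. The deposited posterior SD of the counts, which measures how uncertainly reads were divided between transcripts, was 110 on 8972 counts for Pkm-201 and 112 on 7184 for Pkm-202 in replicate 1.

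**Figure D3:**
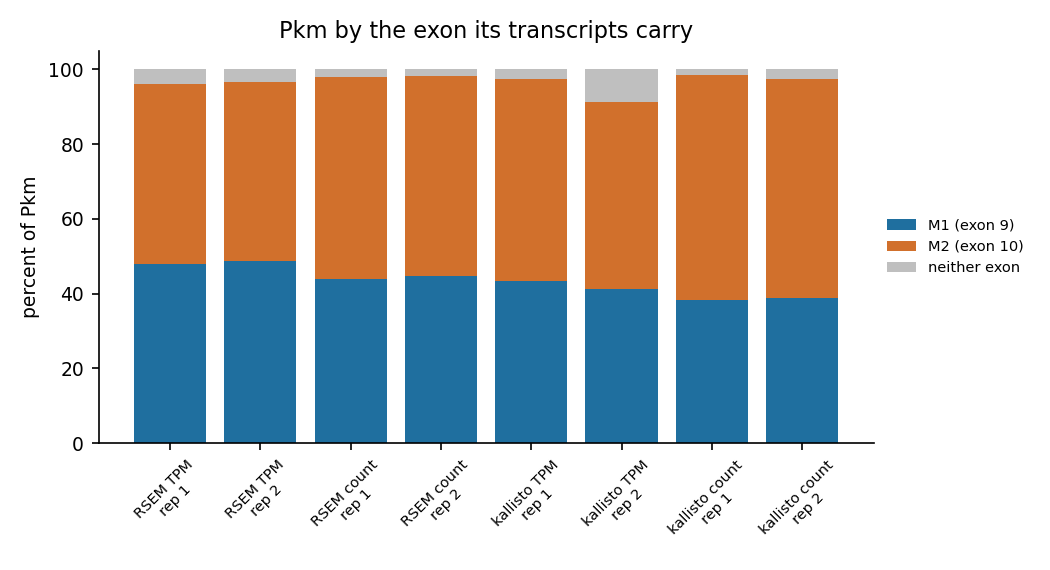
Percent of Pkm in M1 transcripts, M2 transcripts and unassigned transcripts (labelled as neither exon), for each library, transcript table and quantity (TPM or count). M2 runs from 48.1% of all Pkm by TPM in the RSEM-layout tables to 60.4% by count in the kallisto-layout table of replicate 1. The unassigned share is highest, at 8.71%, by TPM in the kallisto-layout table of replicate 2.

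The RNA of genes for proteins known to choose between these exons was measured in the same libraries. PTBP1, HNRNPA1 and HNRNPA2B1 are known to repress the M1 exon, and PTBP2 is the neuronal relative of PTBP1. Hnrnpa2b1 had 235 ± 5.66 TPM, Hnrnpa1 132 ± 4.79, Ptbp2 60.8 ± 0.57 and Srsf3 57.7 ± 6.09. Ptbp1, singled out after its value was seen, had 26.4 and 27.7 TPM, below Ptbp2 at 61.3 and 60.4. Of the 7 genes of this list, 1 (Rbm4) differed between the libraries by the test described below, with a log2 ratio of -0.19, and 0 were higher in replicate 2, where 22.5% of all genes were called in either direction. Their part in the M1 to M2 balance was not tested.

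The other members also differed in how far a single transcript carried the gene. In the RSEM-layout tables the same transcript led in both libraries for 9 of 10 members, the exception being Pkm with its near-equal pair. Only 5 of 10 members (Pfkp, Aldoc, Pgk1, Eno1 and Eno2) had the same leader in both kinds of table. Pgk1-201 held 99.4% and 99.8% of Pgk1 in the RSEM-layout tables and 83.7% and 82.5% in the kallisto-layout tables. Eno1-202 held 88.5% and 89.4%, against 91.3% and 95.1%. Aldoc-202 held 74.5% and 81.6%, against 73.3% and 74.1%. These 3 genes thus had a clear main form in every table.

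Hk1 was read differently by the tables. Hk1-202, with the membrane-binding start printed above, held 58.8% and 61.7% of Hk1 in the RSEM-layout tables, but 27.6% and 28.9% in the kallisto-layout tables. Hk1-201 held 26.0% and 28.3%, against 34.5% and 35.7%. Hk1-205 held 12.4% and 8.52%, against 36.3% and 33.9%. In each table the libraries lay closer to each other than to the other table. At the coding level Hk1-202 has 63 bases that Hk1-205 lacks and Hk1-205 has 60 of its own, while their untranslated ends differ by far more, since Hk1-202 adds 1054 bases of 3′ UTR and 467 of 5′ UTR. The posterior SD was 249 on 6388 counts of Hk1-202 and 167 on 910 counts of Hk1-205 in replicate 1.

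Aldoa, Pfkm and Gapdh also changed leaders. Aldoa-201 held 87.1% and 85.0% of Aldoa in the RSEM-layout tables, and 46.8% and 42.6% in the kallisto-layout tables, where Aldoa-202, with 153 bases that Aldoa-201 lacks, held 43.6% and 46.1%. Pfkm-201 held 66.5% and 57.4%, against 26.8% and 21.02%, and Pfkm-205, which differs from it only in untranslated bases, held 26.9% and 39.8%, against 41.7% and 46.5%. The short coding Pfkm-204, of 785 bases, held 0.14% and 0.22%, against 30.9% and 32.0%, and so stood above Pfkm-201 in the kallisto-layout tables. For Pfkm the spread between the libraries was the widest of the leading transcripts in the RSEM-layout tables, at 61.9% ± 6.39. Pfkp-201 was stable by comparison, with 41.6% and 40.4% in the RSEM-layout tables and 41.3% and 42.5% in the kallisto-layout tables. Pfkp also had the largest non-coding share after Gapdh in the RSEM-layout tables, at 32.6% ± 2.85. Eno2-201 held 59.1% and 57.7% of Eno2, against 43.7% and 41.5%, with the short coding Eno2-213 (17.7% and 17.1%) and the retained-intron Eno2-210 (9.01% and 13.6%) behind it.

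Gapdh was the extreme case. In the RSEM-layout tables Gapdh-208, a processed transcript of 483 bases with no coding annotation, held 66.3% and 64.1% of Gapdh TPM, ahead of the full-length coding Gapdh-201 (1272 bases) with 31.2% and 33.9%. By count the order was the other way, with 4518 and 4908 for Gapdh-208 and 6503 and 7933 for Gapdh-201. The posterior SD of Gapdh-201 was large, at 1084 and 1488 counts in replicates 1 and 2. Gapdh-202, of 1273 bases, had posterior SDs of 1079 and 1467 on 3 and 4 counts. The counts and share of Gapdh-201 are therefore uncertain. Gapdh-208 and Gapdh-201 were at 0 in the kallisto-layout tables, where Gapdh-207, Gapdh-209 and Gapdh-203 held 37.1%, 29.2% and 28.2% in replicate 1. The effective length of Gapdh as a gene followed these short transcripts and was 654 bases in replicate 1 and 671 in replicate 2. Aldoa, second by TPM, had 20621 and 21612 counts over effective lengths of 1385 and 1386 bases.

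Of the 10 members, 4 have near-identical copies elsewhere in the genome, between which reads can be divided. The annotated transcripts were searched for genes that hold at least 20% of the 31-base words of a member's main coding transcript, a search and threshold chosen after the counts were seen. Gapdh had 82 such genes, of which 74 had counts, Eno1 and Pgk1 had 2 each, and Pkm had 1. Hk1, Pfkm, Pfkp, Aldoa, Aldoc and Eno2 had 0. The isozymes themselves are far enough apart to be separated: Aldoa and Aldoc were 79.0% identical in their aligned part, Eno1 and Eno2 77.0% and Pfkm and Pfkp 71.9%, and each pair shared 0 words of 31 bases.

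Eno1 was the member with the largest share of its counts in copies in the gene tables. Eno1b, 99.5% identical over 1652 aligned bases, had 4609 and 5361 counts in replicates 1 and 2. Gm4735, a processed pseudogene 99.6% identical over 1302 bases, had 1744 and 1974. Eno1 itself had 6131 and 6633, so that the copies held 50.9% and 52.5% of the sum. In the kallisto-layout tables the copies held 36.2% and 37.1% of nearly the same sum (12874 and 14265 counts, against 12484 and 13969). The sum of Eno1 and its copies thus differed little between the tables, and its division differed more.

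Gapdh differed between the tables in the sum as well. With its copies it had 12780 and 14408 counts in the gene tables and 29297 and 32859 in the kallisto-layout tables. The copies held 9.17% and 7.23% of the first and 29.7% and 28.0% of the second. Most of the copies' counts in the kallisto-layout tables went to 1 processed pseudogene, Gm7336 on chromosome 7, with 7887 and 8364 counts, against 212 and 173 in the gene tables. Gm7336 matched Gapdh-201 over 1198 aligned bases with 0 mismatches, gaps not counted, and the longest unbroken match was 1059 bases. Over the members, the ratio of kallisto-layout to gene-table counts ran from 0.994 (Aldoa) to 1.77 (Gapdh), with Eno1 next at 1.35 and a median of 1.07 over 13127 detected protein-coding genes.

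For Pgk1 the copies mattered less. Gm5537, identical to Pgk1-201 over 1252 bases, had 364 and 347 counts beside 6558 and 6823 for Pgk1 in the gene tables, and 0 in the kallisto-layout tables. The copy of Pkm, Gm6560, had 47 and 52 counts. The posterior SD of the gene count was highest for 3 of the 4 members with copies. It was 1.29% and 1.16% of the count for Eno1, 0.916% in both libraries for Pgk1 and 0.690% and 0.551% for Gapdh, and under 0.06% for the other 7, Pkm among them.

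**Figure D4:**
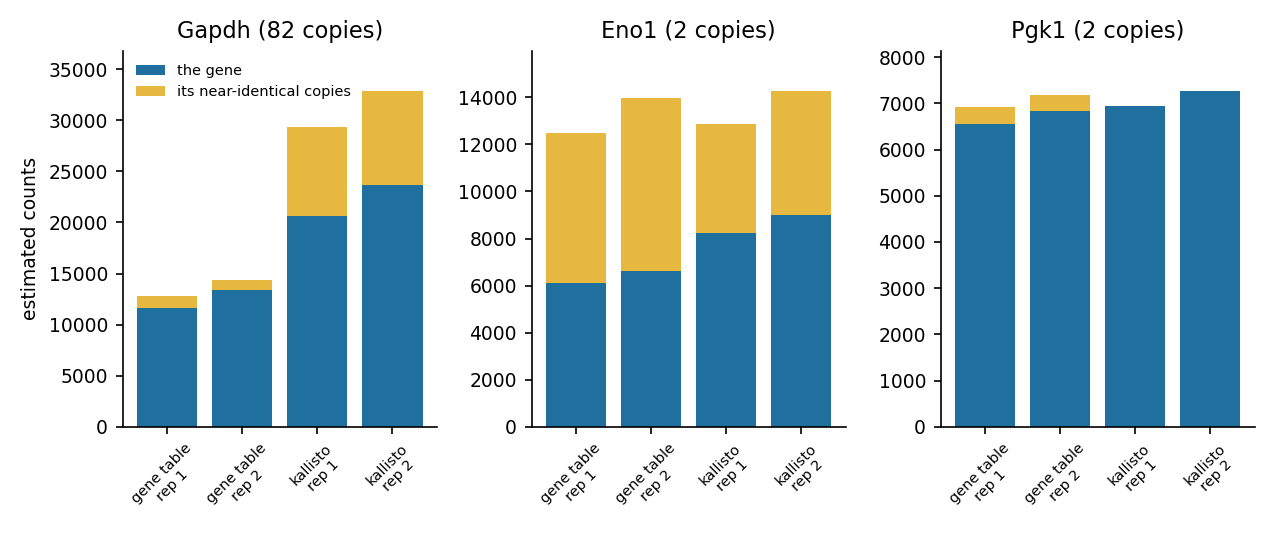
Estimated counts for Gapdh, Eno1 and Pgk1 (blue) and summed over their near-identical copies (yellow), for each library in the gene tables and the kallisto-layout tables. The Gapdh bars reach 29297 and 32859 in the kallisto-layout tables against 12780 and 14408 in the gene tables, and the Eno1 bars have nearly equal heights with different divisions.

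The members were close to equal in the 2 libraries. After TMM scaling (trimmed mean of M-values), their log2 ratios of replicate 2 to replicate 1 ran from -0.12 (Pfkp) to 0.06 (Gapdh), with a median size of 0.06 against 0.14 over all 18322 genes tested and 0.07 over the 1092 genes with a mean count of at least 5000, a group set after seeing the data that holds all 10 members. An exact two-sided binomial test with Benjamini-Hochberg adjustment over all of them called 6 of 10 members, where 22.5% of all genes were called. The test compares the 2 libraries beyond counting noise and not conditions, and it calls small differences in highly counted genes: of the same 1092 genes, 61.3% were called. The share of members called, 6 of 10, is near that of genes counted as deeply. When a coefficient of variation of 0.1 was allowed for, edgeR's exact test called 0 of 10 members and 174 genes (0.95%), with 1194 genes at an unadjusted p under 0.05.

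Gapdh was higher in replicate 2, by a log2 ratio of 0.06 (adjusted p = 0.0077, exact binomial test), among 11.9% of all genes called in that direction. Pfkp (-0.12), Aldoc (-0.11), Pgk1 (-0.09), Aldoa (-0.08) and Eno2 (-0.06) were lower, among 10.7% of all genes. Of the 1092 genes with a mean count of at least 5000, 430 were called higher in replicate 2 and 239 lower. Hk1 (0.04), Pfkm (-0.03), Eno1 (-0.03) and Pkm (-0.02) did not pass. On kallisto-layout counts, where 24.4% of genes were called, Pgk1 (-0.04, adjusted p = 0.28) and Eno2 (-0.02, adjusted p = 0.51) lost their calls in the exact binomial test and Hk1 gained one (0.08, adjusted p = 0.0006). All these directions are relative to the bulk of genes: scaling to the spike-in total moved the median of all genes to 0.11. With that scaling 7 members, Hk1 and Gapdh among them, were called higher in replicate 2 (30.1% of all genes) and 0 lower (5.46% of all genes). The ratios of Pfkm, Aldoa, Aldoc, Pgk1, Eno1, Eno2 and Pkm turned positive. Of these, Aldoc (adjusted p = 0.86) and Pgk1 (adjusted p = 0.45) were not called in the exact binomial test.

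The isozymes with a textbook cell type are set here beside the markers of that cell type. Aldoc had a log2 ratio of -0.11, while the 7 astrocyte markers had a median log2 ratio of -0.02 but were split. Of them, 3 were called higher in replicate 2 (Aqp4 at 0.40, Gfap at 0.33 and Slc1a3 at 0.11) and 1 lower (Slc1a2 at -0.05). Eno2 had a log2 ratio of -0.06, although its TPM was the higher in replicate 2. The 4 excitatory neuron markers had a median of 0.06, with 2 called higher and 0 lower, and the 5 general neuron markers also had a median of 0.06, with 3 called higher and 2 lower (Snap25 at -0.18 and Syt1 at -0.14). All 6 myelinating oligodendrocyte markers were lower in replicate 2, by -0.61 to -1.38, as were all 3 red blood cell markers (506 and 379 TPM in sum) and the 2 choroid plexus markers that could be tested (Ttr at -0.96 and Otx2 at -2.08). No member moved by more than 0.12 on the same scale. Their part in the members' ratios was not tested.

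**Figure D5:**
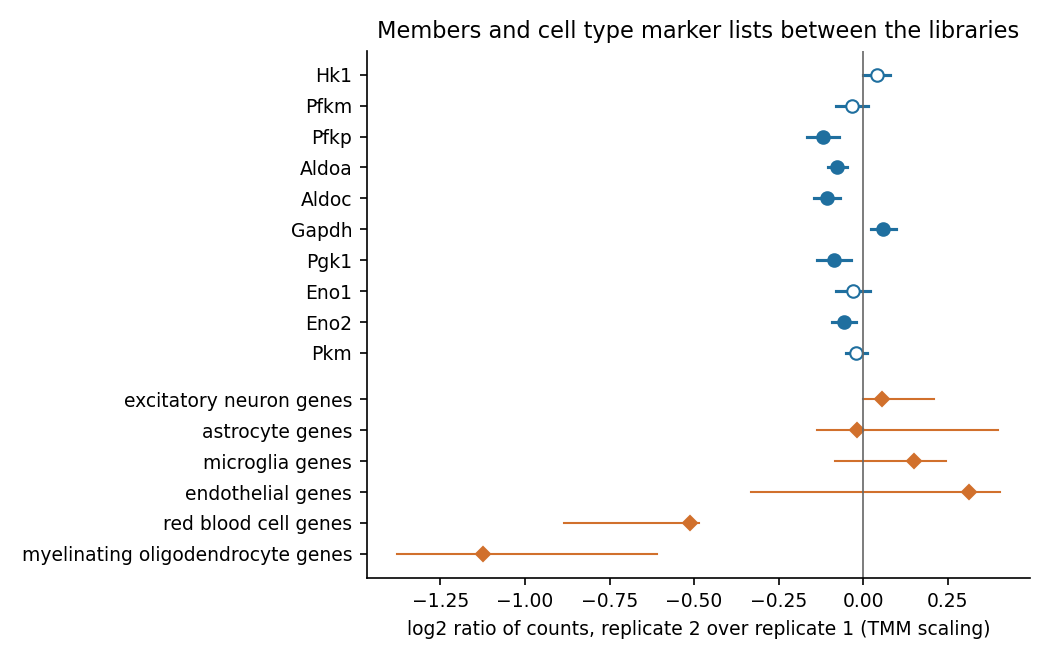
Log2 ratio of replicate 2 to replicate 1 after TMM scaling, for each member with its counting interval (filled where the binomial test called it) and for 6 marker lists as the median and range over their genes. The members lie within 0.12 of 0, and the myelinating oligodendrocyte genes lie between -1.38 and -0.61.

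The remaining genes of the pathway ran from levels like those of the members down to 0. Gpi1, which converts glucose 6-phosphate to fructose 6-phosphate, had 354 and 318 TPM, and Tpi1, which interconverts the triose phosphates, had 242 and 257. Pgam1, the mutase before enolase, had 239 and 244 TPM, above Bpgm (32.5 ± 4.35) and the muscle form Pgam2 (5.35 ± 0.01). Pgam5, listed with the mutases by name only, had 29.9 ± 1.70 TPM. The enzymes that set fructose 2,6-bisphosphate, the main activator of phosphofructokinase, were an order lower, with Pfkfb2 at 21.9 ± 2.10 TPM, Pfkfb3 at 14.5 ± 1.03, Tigar at 13.4 ± 0.76, Pfkfb4 at 7.25 ± 0.32 and Pfkfb1 at 0.660 ± 0.071. After pyruvate, the lactate dehydrogenase genes Ldhb (heart type) and Ldha (muscle type) had 194 ± 1.07 and 169 ± 14.3 TPM, and the testis gene Ldhc had 0 counts in both libraries. Ldhb made up 53.6% ± 1.97 of this step, and 64.1% ± 1.85 in the kallisto-layout tables. Of the 34 listed genes described, members and Pgam5 included, 30 were counted deeply enough to be tested. Among those, 3 were higher and 8 lower in replicate 2, beside 11.9% and 10.7% of all genes. Of these 11 calls, 6 were members. The 30 tested genes had a median log2 ratio of -0.04.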

How the data were processed

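Per the labels and the notes deposited beside the tables, the build was mm10 and the annotation GENCODE M21. Not given in the sources used here were the aligner, the quantifiers and their versions. Expected counts (estimated reads, not normalised), posterior SDs, TPM and each transcript's percent of its gene are the authors' deposited values in RSEM-layout tables made from transcriptome alignments. The kallisto-layout estimated counts and TPM were made by the authors from the reads, per the deposited notes. TPM differs in scale between the tables (median ratio 1.57 over detected protein-coding genes). From these, shares, ratios and SDs over 2 libraries were computed (Python 3.11.15, scipy 1.17.1). Expected counts were rounded for the exact binomial test, on genes with a mean count of at least 10, with TMM library sizes (edgeR 4.0.16) from the same genes and a prior count of 0.5; a first version with TMM over every gene and a filter on rounded counts gave 4167 calls instead of 4128. DESeq2 1.42.0 gave alternative size factors. Entries that name no gene held 2.67e-05% and 9.40e-06% of counts and were left out, as were spike-ins. On counts simulated with counting noise only, the test recovered 95.0% of 200 changed genes, with 13 false calls. That setting cannot show how the test behaves when libraries differ beyond counting noise. Some pathway genes are not reported here and were left out of the lists and sums. Named were all members, other isozymes of their steps, and mainly genes of highest TPM (up to 4) or under 1 TPM from other lists. Of the transcripts with at least 10% of a member's TPM in a library, the leading ones and some others were named. The members and lists were chosen with earlier results of these data known. Intervals cover counting error only, at 95% (exact Clopper-Pearson).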

Additional observations from a re-analysis of the deposited data

How the results depend on the processing

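No paired analysis was possible because the 2 libraries form 1 group. Without replicate 1 or replicate 2 in turn, the median member level was 236.9 and 234.2 TPM against 235.5, and no isozyme ratio changed its call. The exact binomial test has 1 library a side, so leaving one out gives no value. The median member level was 443.7 TPM in the kallisto-layout tables, 528.2 with TPM rescaled over protein-coding genes outside the mitochondrial genome, and 295.6 with near-identical copies added, an alternative chosen after seeing the data. In the kallisto-layout tables the M2 share of Pkm was 55.1% and the log2 ratio of Pfkp to Pfkm was -0.56, now called. With copies added, Eno1 to Eno2 was 0.44 in the gene tables and 0.093 in the kallisto-layout tables, the opposite direction to -0.77. Differences between the libraries numbered 6515 genes (84.7% of them higher in replicate 2, against 52.7%) with spike-in scaling, 174 when edgeR's exact test allowed for a coefficient of variation of 0.1, where 0 members were called, against 4128. With spike-in scaling the log2 ratios became 0.079 for Pfkm, 0.037 for Aldoa, 0.0062 for Aldoc, 0.027 for Pgk1, 0.083 for Eno1, 0.057 for Eno2 and 0.093 for Pkm. DESeq2 size factors, no filter, a mean count of at least 50, kallisto-layout counts, and TMM over every gene with a filter on rounded counts (chosen after seeing the data) gave 4153, 3801, 4010, 4934 and 4167 calls, with 6, 6, 6, 5 and 6 members. The causes of these changes were not tested.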
